A study of Sus scrofa with 12 samples.

Results

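The genes CD3D, CD2, CD27, CCR7, TCF7 and BCL11B, which mark T cells and in particular naive T cells, were followed through 12 RNA libraries of pig peripheral blood mononuclear cells (PBMC). They were chosen by name as 6 rows of a table of 7480 genes. The rule held no measured value, but the choice was made with earlier results of these data known. According to the labels, the cells came from crossbred piglets (Duroc x Landrace x Yorkshire) of 4 weeks and were collected 12 h after treatment. The groups were miR-124 sponge plus Salmonella, Salmonella alone and non-treated control, with 4 libraries each. The design text names the bacterium as Salmonella Typhi and speaks of 20 piglets, and the labels do not say which animals gave which library, or whether animals or drawn cells were treated. A sponge is a synthetic molecule that binds a microRNA and so keeps it from its targets. The treatment labels speak of a sponge in that group, whereas its titles and columns list miR-124 with Salmonella. No group carried the sponge without the bacterium.

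T cells recognise antigen through a receptor whose signal is passed on by the CD3 chains, of which CD3D is one. CD2 is an adhesion receptor of T and NK cells, and CD27 is a costimulatory receptor of the TNF receptor family on naive and memory T cells that memory B cells also carry. CCR7 is the chemokine receptor that guides naive and central memory T cells, and mature dendritic cells, into lymph nodes. TCF7 and BCL11B are DNA-binding proteins: TCF7 acts in the Wnt pathway and keeps T cells in a naive or stem-like state, and BCL11B fixes the T cell lineage in the thymus and maintains it afterwards.

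The pig gene table for Sscrofa11.1, the build named in the submitters' processing notes, placed the 6 genes on 6 different chromosomes. CD3D lies on chromosome 9 (45640475 to 45644153) and CD2 on chromosome 4 (103963802 to 103976971). CD27 lies on chromosome 5 (64197594 to 64202236) and CCR7 on chromosome 12 (21857286 to 21869211). TCF7 lies on chromosome 2 (136422740 to 136456323) and BCL11B on chromosome 7 (120205008 to 120295737). These are the spans of whole genes.

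Of the 7480 symbols 399 (5.33%) matched no symbol, older symbol or synonym in the pig gene tables, which held all 6 genes. The deposited values were on a log scale, taken as log2 since the base is not stated, and the depth behind them is unknown. Library medians ran from 5.11 to 5.31, and 6 of the 12 libraries, sponge replicates 2 and 4 and all Salmonella libraries, had the same highest value of 15.01. A share of 65.1% to 71.4% of genes had exactly the value of some other gene within a sponge plus Salmonella library, while this share was at most 0.0267% in Salmonella libraries and at most 0.0802% in control libraries. Of the 24 values of the 6 genes with the sponge, 7 were such ties, and 0 of 24 were in each other group. Treatment and this property of the libraries therefore cannot be told apart. Given these features, how far the table reflects reads of pig RNA was not tested. Salmonella replicate 1 correlated across genes with the sponge plus Salmonella libraries (r = 0.942 to 0.964) almost as closely as with the other Salmonella libraries (0.953 to 0.969). With no link from libraries to animals, p-values stand for the variation among these libraries alone, and that variation may be technical. PBMC markers of T, B, NK and monocytic cells were present, while CD4, CD14 and MS4A1 were not measured. The red cell gene HBA2 was among the highest genes, at 14.53 ± 0.58 with the sponge plus Salmonella, 13.94 ± 0.10 with Salmonella and 13.81 ± 0.08 in control libraries (SD, n = 4 each). It did not stand for its list, of which 3 of 4 measured genes were called lower and 0 higher with the sponge plus Salmonella against Salmonella.

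Of these T cell genes 4 lay far above the floor of the table and 2 close to it. Whether the values are corrected for gene length is not given in the sources used here, so a rank among genes is a position on the deposited scale and not an order of RNA amounts. The floor was read from 162 symbols of olfactory receptors and keratin-associated proteins, and 37 of them were found in the pig gene tables. They were taken as silent in blood, which was not tested, and 1 of them had a control mean between 6.5 and 6.75. Their mean was 4.62, with 5th and 95th percentiles of 4.38 and 4.99. In control libraries CCR7 lay above 98.2% of all genes, CD2 above 97.5%, BCL11B above 95.5% and CD27 above 94.5%. TCF7 lay above 44.4% of genes and CD3D above 3.46%, both under the 95th percentile of the silent symbols. CD3D was thus measured in control libraries as silent genes were, which goes against its place as a defining chain of the T cell receptor. Its partner chain CD3E stood at 7.79 ± 0.10 in the same libraries. The sizes of fold changes of CD3D and TCF7 are uncertain at such levels.

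**Figure D1:**
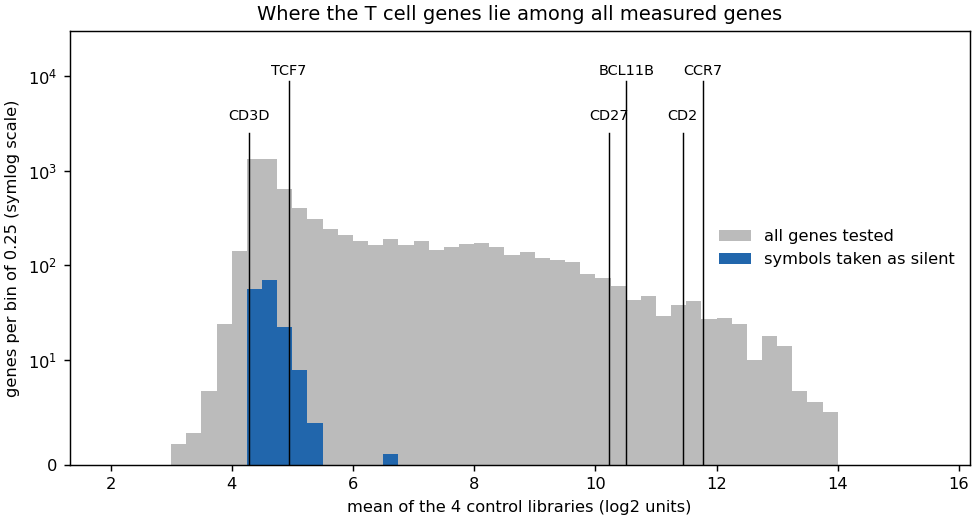
Number of genes per bin of 0.25 log2 units of the mean of the 4 control libraries, on a symlog scale, for all 7480 genes (grey) and for the 162 symbols taken as silent (blue), with lines at the 6 T cell genes. CD3D (4.29) and TCF7 (4.94) stand among the silent symbols, and CD27 (10.23), BCL11B (10.51), CD2 (11.44) and CCR7 (11.78) far above them.

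In Salmonella libraries CD27, CCR7, CD2 and BCL11B stood lower than in control libraries, by log2 differences of -2.08 to -1.56, and TCF7 was lower by a difference of -0.85. All 6 genes were higher with the sponge plus Salmonella than with Salmonella alone, by 0.81 to 1.47 log2 units. Against control libraries the sponge plus Salmonella group was lower for CD2, CD27 and CCR7, higher for CD3D and TCF7, and not called different for BCL11B. Differences were called at an adjusted p below 0.05 in limma, fitted over all 7480 genes. In bulk RNA, fewer T cells, less RNA per T cell and a changed share of RNA from other cells cannot be told apart.

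**Figure D2:**
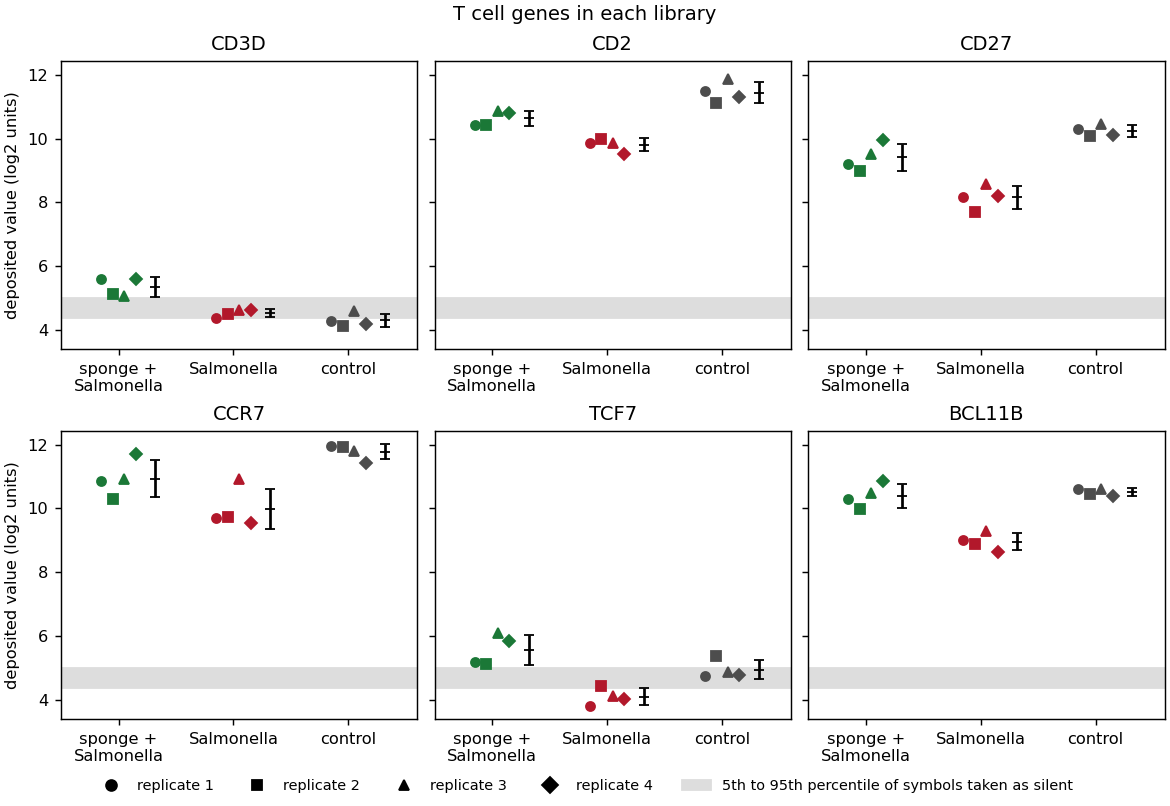
Deposited values in log2 units of the 6 T cell genes in each library, with replicates as symbols and the mean ± SD of each group (n = 4) to their right. The grey band runs between the 5th and 95th percentiles of the symbols taken as silent, 4.38 to 4.99. The CD2, CD27 and BCL11B values with Salmonella lie below all values of the other groups, and every CD3D value with Salmonella or in control libraries is at or below 4.63.

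CD3D stood at 5.60, 5.11, 5.05 and 5.60 log2 units in the sponge plus Salmonella libraries, at 4.37, 4.51, 4.62 and 4.63 in the Salmonella libraries and at 4.28, 4.13, 4.59 and 4.18 in the control libraries. The sponge libraries were above all others, and the values of the other groups overlapped inside or under the range of silent symbols. CD3D was higher with the sponge plus Salmonella than with Salmonella alone by 0.81 ± 0.15 log2 units (SE; limma adjusted p = 0.00181) and than in control libraries by 1.04 ± 0.15 (adjusted p = 1.7e-04). The difference of Salmonella from control was 0.23 with a 95% interval of -0.08 to 0.55, and it was not called (adjusted p = 0.246). The silent symbols had a mean per library of 4.54 to 4.59 in the sponge columns, against 4.62 to 4.64 with Salmonella. That mean lies above CD3D in the Salmonella and control groups, so it does not show how symbols as low as CD3D behaved. OR5D18, a silent symbol at 4.24 ± 0.10 with Salmonella, stood at 4.75 ± 0.22 with the sponge plus Salmonella (SD). It was picked as the gene most like CD3D in pattern (r = 0.943), so it does not stand for the silent symbols. Of the 162, 7 were called higher and 17 lower in that comparison, and 2 differed upward by at least as much as CD3D.

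CD2 stood at 10.43, 10.43, 10.86 and 10.80 with the sponge plus Salmonella, at 9.87, 9.97, 9.87 and 9.53 with Salmonella and at 11.48, 11.1, 11.87 and 11.30 in control libraries. The groups did not overlap in any pair, and the order was control, then sponge plus Salmonella, then Salmonella. CD2 was higher with the sponge plus Salmonella than with Salmonella by 0.82 ± 0.18 (SE; limma adjusted p = 0.00502). It was lower with Salmonella than in control libraries by a log2 difference of -1.63 ± 0.18 (adjusted p = 1.3e-05), or 0.323 times the control level. The sponge plus Salmonella group stayed below control, with a difference of -0.81 ± 0.18 (adjusted p = 0.00281).

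CD27 had the deepest fall of the 6 with Salmonella. Its values were 9.19, 8.99, 9.53 and 9.96 with the sponge plus Salmonella, 8.17, 7.70, 8.56 and 8.19 with Salmonella and 10.29, 10.07, 10.46 and 10.10 in control libraries. No value of a group reached the range of another. The log2 difference was 1.26 ± 0.22 for sponge plus Salmonella against Salmonella (SE; limma adjusted p = 0.00127), -2.08 ± 0.22 for Salmonella against control (adjusted p = 9.5e-06) and -0.81 ± 0.22 for sponge plus Salmonella against control (adjusted p = 0.00901). The Salmonella level was thus 0.237 times that of control, if the scale is log2.

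CCR7 varied most between the libraries of both groups exposed to Salmonella, with SDs of 0.58 with the sponge plus Salmonella and 0.63 with Salmonella. It stood at 10.85, 10.28, 10.91 and 11.70 with the sponge plus Salmonella, at 9.70, 9.73, 10.92 and 9.55 with Salmonella and at 11.95, 11.93, 11.80 and 11.43 in control libraries. Salmonella replicate 3 stood apart from the other Salmonella libraries, which reached at most 9.73, and above 3 of the 4 sponge libraries. CCR7 was lower with Salmonella than in control libraries, with no overlap (-1.80 ± 0.30 SE; limma adjusted p = 4.4e-04). The sponge plus Salmonella group overlapped both other groups. It was called higher than Salmonella by 0.96 ± 0.30 (adjusted p = 0.0332) and lower than control by a difference of -0.84 ± 0.30 (adjusted p = 0.0377). Both calls depended on single libraries. The call against Salmonella was lost on leaving out any of sponge replicates 3 and 4 and Salmonella replicates 1, 2 and 4 (adjusted p 0.0633 to 0.102), and without Salmonella replicate 3 the adjusted p was 0.00552. The call against control was lost on leaving out any of sponge replicates 1, 2 and 3 and of control replicates 1, 2 and 3 (adjusted p 0.0649 to 0.124).

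TCF7 lay at the floor or under it with Salmonella and above it with the sponge. Salmonella replicates 1, 3 and 4 were under 4.38, the 5th percentile of the silent symbols. The Salmonella mean of 4.09 was above 0.401% of all genes, and the control mean of 4.94 was inside the range of silent symbols. On group means, the difference of Salmonella from control thus ran from inside that range to under it. Its values were 5.19, 5.11, 6.09 and 5.83 with the sponge plus Salmonella, 3.8, 4.43, 4.11 and 4.02 with Salmonella and 4.73, 5.38, 4.88 and 4.76 in control libraries. All sponge values were above 4.99, the upper bound of the silent symbols, as was control replicate 2 alone among the other libraries. The log2 difference was 1.47 ± 0.23 for sponge plus Salmonella against Salmonella (SE; limma adjusted p = 6.0e-04) and -0.85 ± 0.23 for Salmonella against control (adjusted p = 0.00955), both with no overlap. Sponge plus Salmonella was called higher than control by 0.62 ± 0.23 (adjusted p = 0.0392), with overlapping groups. That call was lost on leaving out any of sponge replicates 3 and 4 and control replicates 1, 3 and 4 (adjusted p 0.0734 to 0.114) and after median centring (0.50, adjusted p = 0.0745).

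BCL11B stood at 10.28, 9.97, 10.47 and 10.86 with the sponge plus Salmonella, at 9.01, 8.88, 9.29 and 8.64 with Salmonella and at 10.62, 10.44, 10.61 and 10.38 in control libraries. The Salmonella libraries were apart from all others, and of the sponge libraries replicates 1 and 2 lay below the narrow control range, replicate 3 inside it and replicate 4 above it. BCL11B was higher with the sponge plus Salmonella than with Salmonella by 1.44 ± 0.19 (SE; limma adjusted p = 2.6e-04) and lower with Salmonella than in control libraries by a difference of -1.56 ± 0.19 (adjusted p = 2.8e-05). For sponge plus Salmonella against control the difference was -0.11 with a 95% interval of -0.52 to 0.29 (adjusted p = 0.649). Its sign changed without sponge replicate 2 (0.03) and after quantile normalization (0.04).

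**Figure D3:**
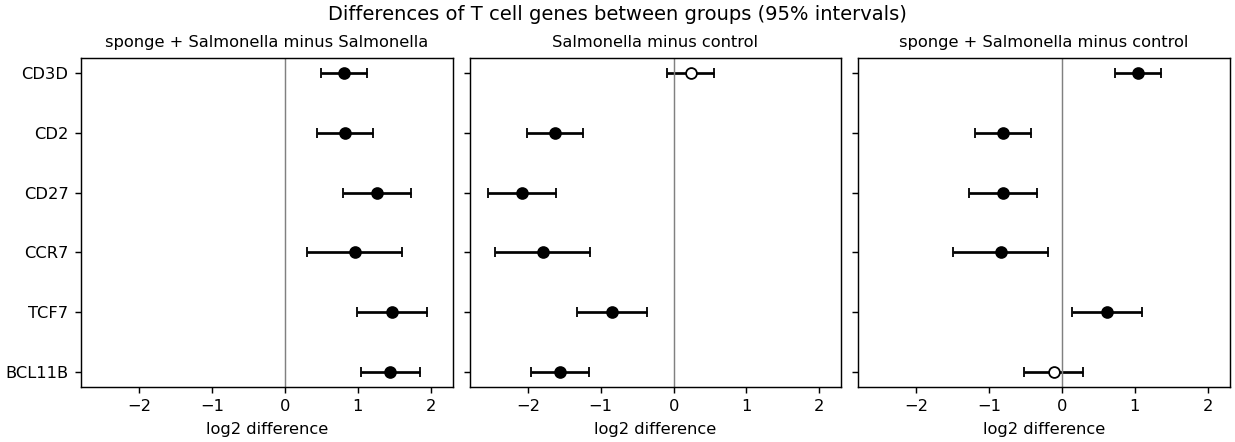
Log2 differences of the 6 T cell genes in the 3 comparisons, with 95% intervals from limma (4 libraries a group). Filled points passed an adjusted p below 0.05, and open points did not: CD3D in Salmonella minus control (0.23) and BCL11B in sponge plus Salmonella minus control (-0.11).

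With the sponge plus Salmonella against Salmonella, 6 of the 6 genes were called higher, where 11.9% of the 7480 genes were called higher and 25.0% in either direction. For 5 of them, all but CCR7, the groups did not overlap, as for 10.6% of all genes in that direction. A filter on a mean of at least 5 left 4144 genes and removed CD3D and TCF7, which lie near the floor. The remaining 4 of the 6 genes were all called higher in that fit, where 585 of the 4144 genes were. With Salmonella against control, 5 of 6 were called lower, where 17.9% of all genes were (33.6% in either direction). The Salmonella values lay under all control values for those 5 genes, as for 19.9% of all genes. Under the same filter the remaining 4 were all called lower, where 1090 of the 4144 genes were. With the sponge plus Salmonella against control, 3 were called lower and 2 higher, where 23.0% of all genes were called lower, 17.9% higher and 40.9% in either direction. Groups without overlap were those of CD2 and CD27 (lower, as for 22.5% of all genes) and of CD3D (higher, as for 17.3%). The last count depended on the scaling and the filter. It was 3 after quantile normalization (1 higher and 2 lower) and also 3 (0 higher and 3 lower) under a filter on a mean of at least 5, which removed CD3D and TCF7 and left 4 genes. After centring each library on its median, all-gene calls were 1062 higher and 2569 lower in this comparison, in place of 1336 and 1721, and 965 higher and 1778 lower for Salmonella against control, in place of 1175 and 1338. Centring moved the median difference of all genes between sponge plus Salmonella and control to -0.20, against -0.07 in the deposited values. The comparisons share groups, so the calls are not independent of each other. Since the 6 genes were chosen with earlier results of these data known, their counts beside the shares of all genes are a description and not a test.

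The same libraries tended to be high or low for several of the 6 genes. Sponge replicate 2 was the lowest of its group, or level with the lowest, for CD2, CD27, CCR7, TCF7 and BCL11B, and sponge replicate 4 was the highest for CD27, CCR7 and BCL11B. Salmonella replicate 3 was the highest of its group for the same 3 genes. In the sponge group, the mean of the 9 measured monocyte and macrophage markers was highest in replicate 2 (8.66) and lowest in replicate 4 (8.11). The part of other cells in these differences was not tested. Salmonella replicate 3 did not follow that pattern, with the highest monocyte marker mean of its group (9.27).

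CD27, CD2, CCR7 and BCL11B followed each other across the 12 libraries, and CD3D followed none of them. As a description over libraries that fall into 3 groups, Pearson's r among these 4 genes was 0.867 to 0.939. Among 7479 other genes, CD27 ranked 9th for likeness to CCR7, 29th for CD2 and 30th for BCL11B. The other ranks among these 4 genes were lower, from 37th (CD2 for likeness to CD27) to 185th (CCR7 for likeness to CD2). CD3D had r = -0.15 with CD2, -0.021 with CD27 and -0.053 with CCR7, 0.257 with BCL11B and 0.523 with TCF7. TCF7 was closest to BCL11B, at 0.796.

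The genes nearest in pattern to CD2 were PRKCQ, a protein kinase C of T cell receptor signalling (r = 0.978 over 12 libraries), XYLT2 (0.970) and CBLB, a ubiquitin ligase that restrains T cell activation (0.967). Those nearest to CD27 were PPP1R2 (0.991), the ribosomal protein gene RPL22 (0.986) and ARL2BP (0.976), and those nearest to CCR7 were the costimulatory receptor ICOS (0.968), ABLIM1 (0.954) and EIF3L (0.954). BCL11B was nearest to the amino acid transporter SLC38A1 (0.974), the adaptor GRAP (0.973) and POLR1E (0.971). The gene most like CD3D was OR5D18, an olfactory receptor symbol that stood at 4.75 ± 0.22 with the sponge plus Salmonella, 4.24 ± 0.10 with Salmonella and 4.26 ± 0.04 in control libraries (SD, n = 4 each; r = 0.943), followed by PRPF38A (0.923) and PGPEP1 (0.916). TCF7 was nearest to ZNHIT6 (0.943) and to LHX6 (0.918) and SIM1 (0.914), which are known as factors of brain development. LHX6 stood at 4.67 ± 0.16 with the sponge plus Salmonella, 4.25 ± 0.12 with Salmonella and 4.58 ± 0.13 in control libraries.

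To compare the genes with each other inside a library, the value of CD3D was subtracted from that of every gene. Against Salmonella, sponge plus Salmonella was higher relative to CD3D for BCL11B (0.63 ± 0.22 SE; limma adjusted p = 0.0135) and TCF7 (0.66 ± 0.28; adjusted p = 0.0369), 2 of the other 5 genes, where 1.47% of all genes were likewise higher. CD27 (0.45), CCR7 (0.15) and CD2 (0.01) were not called. With Salmonella against control 5 of 5 were lower relative to CD3D, by differences of -2.31 to -1.08, where 21.2% of genes were, and with the sponge plus Salmonella against control 4 of 5 were, where 82.2% of genes were. These values carry the floor level of CD3D. The TCF7 call against Salmonella alone ended without sponge replicates 3 or 4 or any of Salmonella replicates 1, 3 or 4, and the BCL11B call ended without Salmonella replicate 4 (adjusted p = 0.0629).

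With CD3E subtracted in place of CD3D, a choice made after seeing the level of CD3D, CD27 was the 1 gene of the 6 called lower with Salmonella against control (-0.97 ± 0.36 SE; limma adjusted p = 0.0104), where 0.709% of genes were called lower. On the deposited scale the value of CD27 minus that of CD3E in the same library was 1.47 ± 0.45 with Salmonella and 2.44 ± 0.21 in control libraries (SD, n = 4 each). The differences relative to CD3E were -0.70 for CCR7 (95% interval -1.38 to -0.02; adjusted p = 0.0558), -0.53 for CD2 (-1.21 to 0.16), -0.46 for BCL11B (-1.15 to 0.24) and 0.26 for TCF7 (-0.39 to 0.90). CD3D was higher relative to CD3E (1.34 ± 0.31; adjusted p = 6.4e-05), as were 78.1% of genes. Relative to CD3E 0 of the 5 genes besides CD3D were called with the sponge plus Salmonella, either against Salmonella (84.8% of all genes called) or against control (16.1%). The lowest adjusted p of these was 0.0637, for CCR7 against control, by limma. The subtracted gene enters every value of such a fit, and with it the spread of that gene.

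Other genes of T cells were counted together with ligands, partners and corepressors of the 6 genes. More were called higher than lower with the sponge plus Salmonella against Salmonella, and more lower than higher with Salmonella against control. Over 6 lists, each gene counted once and the 6 genes left out, 58 of 125 genes were measured. The ligands, partners and corepressors among them need not be genes of T cells. With the sponge plus Salmonella against Salmonella 26 were called higher and 4 lower (median 0.59, against -0.04 over all genes), where 11.9% of all genes were higher and 13.2% lower. With Salmonella against control 5 were higher and 25 lower (median -0.30, against -0.02), where 15.7% of all genes were higher and 17.9% lower. Of those 5, 4 were in the list of ligands and partners. With the sponge plus Salmonella against control 14 were higher and 17 lower (median -0.16, against -0.07), where 17.9% of all genes were higher and 23.0% lower. The same shares of all genes apply to the counts by list that follow. These lists, too, were chosen with earlier results of these data known.

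Of 14 measured genes of the T cell receptor complex, coreceptors and proximal signalling, 9 were higher and 1 lower with the sponge plus Salmonella against Salmonella (median 0.88). The phospholipase PLCG1 (2.02 ± 0.30 SE), the kinase TXK (1.20 ± 0.26) and CD3E (1.14 ± 0.24) were higher, and the exchange factor VAV1 (-0.74 ± 0.21) was lower. PLCG1 stood at 6.33 ± 0.37 with the sponge plus Salmonella, 4.30 ± 0.75 with Salmonella and 3.95 ± 0.31 in control libraries (SD, n = 4 each). Both levels without the sponge were under the 5th percentile of the silent symbols. Salmonella against control gave 11 lower and 0 higher (median -1.16), among them the coreceptor CD8A (-1.74 ± 0.30), the receptor-associated TRAT1 (-1.63 ± 0.21), CD5 (-1.45 ± 0.24) and CD6 (-1.36 ± 0.23). CD3E was lower as well (-1.1 ± 0.24; limma adjusted p = 0.00273), which CD3D was not. Sponge plus Salmonella against control gave 5 lower, led by CD8B (-1.65 ± 0.33) and CD8A (-1.34 ± 0.30), and 2 higher, PLCG1 (2.38 ± 0.30) and the adaptor GRAP2 (1.58 ± 0.25).

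Of 7 other naive and central memory genes 5 were higher with the sponge plus Salmonella against Salmonella and 0 lower (median 0.78). BACH2, a repressor that keeps T cells from effector fates, was higher by 1.82 ± 0.28 (SE), the forkhead factor FOXO1 by 0.84 ± 0.22, the chromatin organiser SATB1 by 0.84 ± 0.28 and the water channel AQP3 by 0.78 ± 0.24. Lower with Salmonella against control were 2, FOXO1 (-1.91 ± 0.22) and the TCF7 relative LEF1 (-1.31 ± 0.21), and 5 were not called (median -0.61). AQP3 was at the silent level without the sponge, at 4.53 ± 0.46 with Salmonella and 4.62 ± 0.36 in control libraries. KLF2, a factor of T cell trafficking and quiescence that endothelium and monocytes express too, stood at 13.06, 12.98 and 13.06 on average with the sponge plus Salmonella, with Salmonella and in control libraries and was not called. Between sponge plus Salmonella and control, BACH2 (1.1 ± 0.28) and AQP3 (0.69 ± 0.24) were higher and FOXO1 (-1.07 ± 0.22) and LEF1 (-0.69 ± 0.21) lower.

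Of 8 other T lineage transcription factors 5 were higher with the sponge plus Salmonella against Salmonella and 0 lower (median 0.74), among them IKZF3 (1.58 ± 0.26 SE), RUNX3 (0.86 ± 0.21), a factor of CD8 T cells, and LEF1 (0.62 ± 0.21). In Salmonella against control 4 were lower and 0 higher (median -0.57), among them TOX (-1.68 ± 0.19), LEF1 and RUNX3 (-1.12 ± 0.21). IKZF3 was at the silent level without the sponge, at 4.41 ± 0.39 with Salmonella and 4.17 ± 0.10 in control libraries. On group means RORA was too, at 4.85 ± 1.10 with Salmonella and 4.42 ± 0.49 in control libraries. TOX stood at 4.39 ± 0.17 with Salmonella, also at the silent level, and at 6.06 ± 0.30 in control libraries (SD, n = 4 each). Compared with control, the sponge plus Salmonella group had IKZF3 (1.82 ± 0.26), RORA (1.65 ± 0.43) and TBX21 (0.90 ± 0.27), the factor of type 1 helper cells, higher and TOX (-1.1 ± 0.19) and LEF1 lower.

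Of 13 activation and effector genes 6 were higher and 1 lower with the sponge plus Salmonella against Salmonella (median 0.67). The interleukin-2 receptor chain IL2RB (1.19 ± 0.20 SE), the early activation marker CD69 (1.0 ± 0.30), TNFRSF4 (0.94 ± 0.29) and the inhibitory receptor CTLA4 (0.77 ± 0.19) were higher, and HAVCR2 (-0.79 ± 0.20), which monocytes also carry, was lower. With Salmonella against control 5 were lower and 1 higher (median -0.41). The helper ligand CD40LG (-1.57 ± 0.22), IL2RB (-1.52 ± 0.20), ICOS (-1.19 ± 0.22) and TNFRSF4 (-0.78 ± 0.29) were lower and the immediate early gene EGR1 (0.69 ± 0.20) was higher. In sponge plus Salmonella against control CD69 (1.40 ± 0.30) and CTLA4 (1.09 ± 0.19) were higher, and CD40LG (-0.90 ± 0.22), HAVCR2 (-0.84 ± 0.20) and IL21 (-0.61 ± 0.12) lower. IL21 stood at 4.35 ± 0.20 with the sponge plus Salmonella and 4.96 ± 0.10 in control libraries, inside the range of silent symbols or under it. CTLA4 lay there too without the sponge, at 4.59 ± 0.32 with Salmonella and 4.27 ± 0.07 in control libraries.

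**Figure D4:**
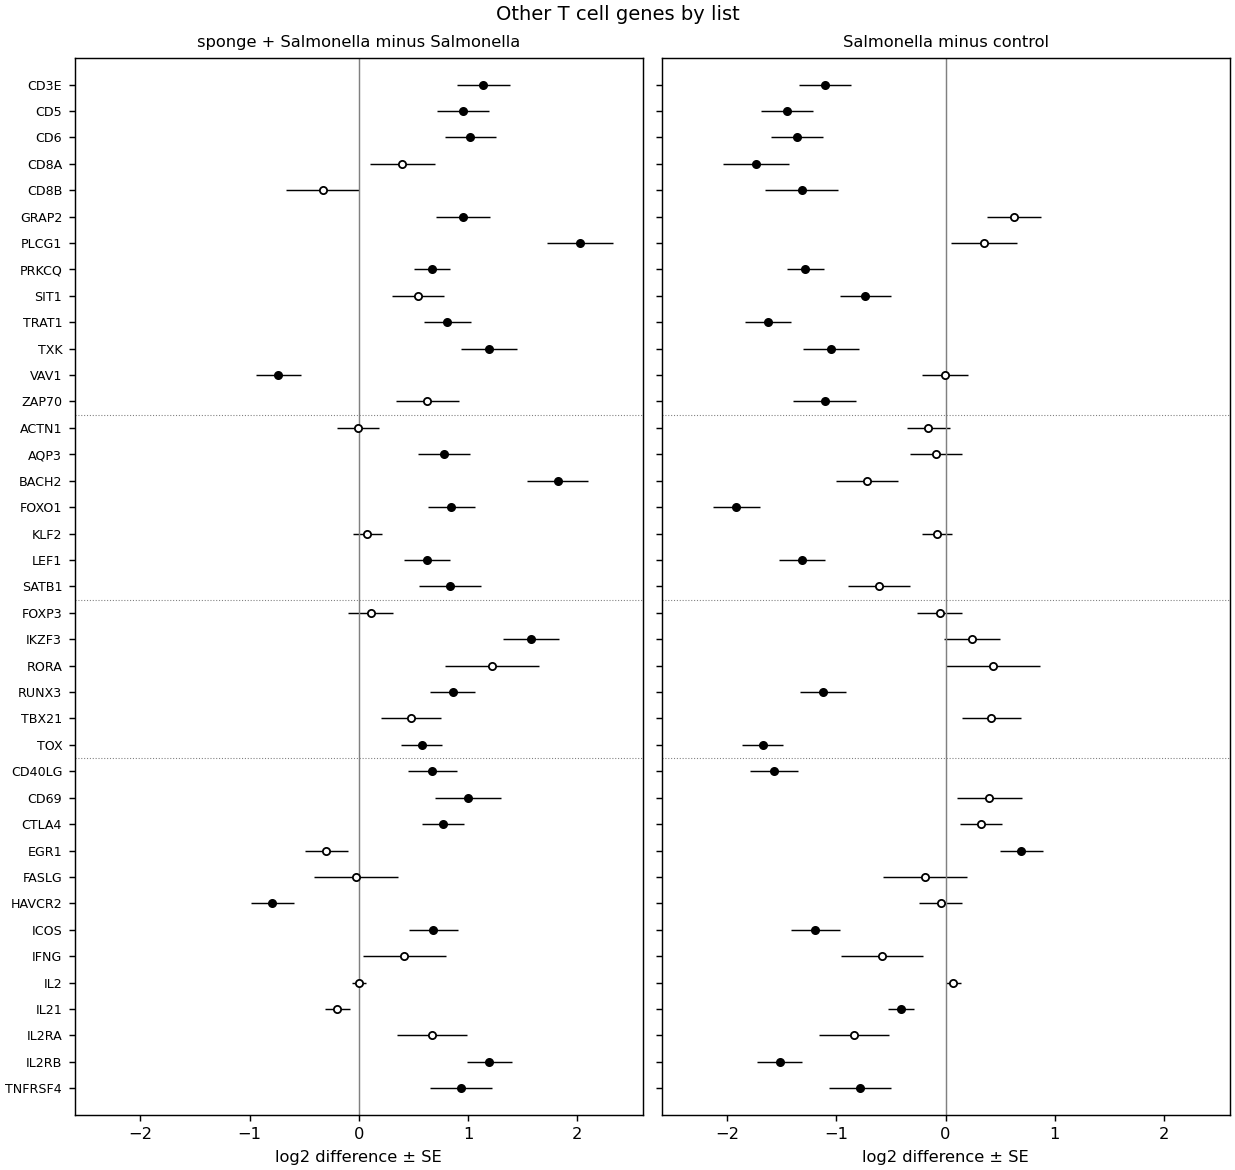
Log2 differences ± SE (limma, 4 libraries a group) of other measured genes reported here in 4 T cell lists, for sponge plus Salmonella minus Salmonella (left) and Salmonella minus control (right). Dotted lines part the lists, from the top the receptor complex and signalling, naive and central memory, lineage factors, and activation and effector genes, and a gene in several lists is drawn once. Filled points passed an adjusted p below 0.05, and in the receptor list 8 such points are above 0 in the left panel and 10 below 0 in the right panel.

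Among ligands and partners of CD2, CD27 and CCR7, the ligands CD58 and CD70 were not measured. Of 8 measured genes 0 were called with the sponge plus Salmonella against Salmonella by limma (lowest adjusted p = 0.135; median -0.19). With Salmonella against control 4 were higher and 2 lower (median 0.63). CD48, which binds CD2 in rodents, was higher (1.24 ± 0.29 SE), as were the CD2 adaptor CD2AP (1.33 ± 0.39) and the arrestins ARRB1 (1.33 ± 0.20) and ARRB2 (0.96 ± 0.24), which bind CCR7. SIVA1, which binds CD27 (-1.07 ± 0.18), and the CCR7 ligand CCL21 (-1.19 ± 0.26) were lower. CCL21 stood at 4.54 ± 0.09 with Salmonella, at the silent level, and at 5.74 ± 0.72 in control libraries (SD, n = 4 each).

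Among 10 partners and corepressors of TCF7 and BCL11B, 3 were higher and 2 lower with the sponge plus Salmonella against Salmonella (median 0.11). The Groucho corepressor TLE1 was higher (1.17 ± 0.23 SE) and its relative TLE4 lower (-0.86 ± 0.20). Salmonella against control had 3 lower and 0 higher (median -0.04), namely TLE1 (-2.20 ± 0.23), LEF1 and the histone deacetylase HDAC1 (-1.12 ± 0.26). With the sponge plus Salmonella against control 2 were higher, among them the deacetylase SIRT1 (1.65 ± 0.33), and 5 lower, led by TLE1 (-1.03 ± 0.23) and HDAC1 (-1.02 ± 0.26).

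Markers of B cells differed in the same directions as most of the T cell genes, and the part of other blood cells in the differences above was not tested. Of 7 measured B cell markers 6 were higher with the sponge plus Salmonella against Salmonella (median 1.56) and 5 lower with Salmonella against control (median -1.61). Their mean per library was 7.02 to 7.30 with the sponge plus Salmonella, 5.65 to 6.11 with Salmonella and 7.07 to 7.38 in control libraries. CD79A, a chain of the B cell receptor, differed by 2.02 ± 0.20 (SE) for sponge plus Salmonella against Salmonella and by -2.78 ± 0.20 for Salmonella against control. Of 7 NK and cytotoxicity markers 2 were higher and 5 not called with the sponge plus Salmonella against Salmonella (median 0.17), and 5 were lower with Salmonella against control (median -1.20). Their mean per library overlapped between the groups exposed to Salmonella and was 8.95 to 9.63 with the sponge plus Salmonella, 8.71 to 9.59 with Salmonella and 10.21 to 10.83 in control libraries.

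Monocyte and macrophage markers moved in the opposite direction. Of 9 measured, 5 were lower with the sponge plus Salmonella against Salmonella, 7 were higher with Salmonella against control and 6 were higher with the sponge plus Salmonella against control. Their mean per library was 8.11 to 8.66 with the sponge plus Salmonella, 9.06 to 9.27 with Salmonella and 7.05 to 7.68 in control libraries. The chemokine receptor CCR2 differed by 3.10 ± 0.35 (SE) for Salmonella against control, and MS4A7 by -1.89 ± 0.27 for sponge plus Salmonella against Salmonella. Of 7 dendritic cell markers other than CCR7 1 was higher with the sponge plus Salmonella against Salmonella, where 11.9% of all genes were (median -0.17), and 3 were lower with Salmonella against control, led by FCER1A (-3.02 ± 0.22), which the basophil list holds too. Of 4 red cell markers 3 were lower with the sponge plus Salmonella against Salmonella and 1 was higher with Salmonella against control. Their mean per library was 9.07 to 11.12 with the sponge plus Salmonella, 10.99 to 11.60 with Salmonella and 10.07 to 10.78 in control libraries.

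**Figure D5:**
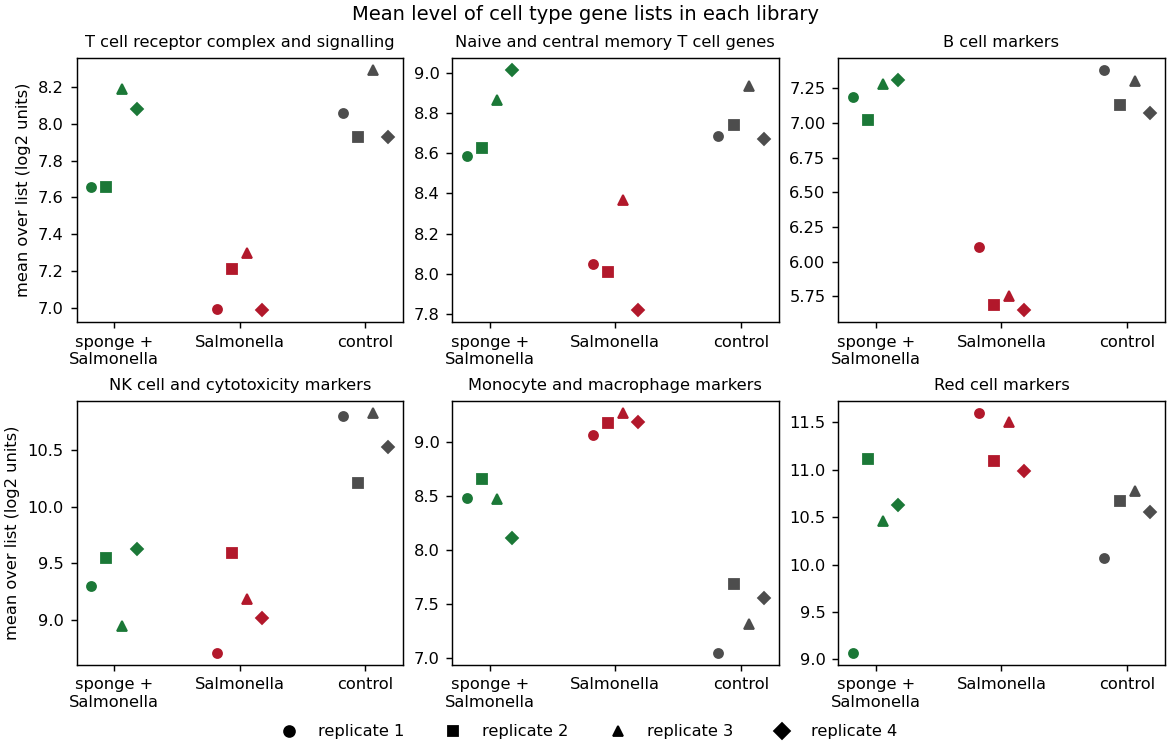
Mean level in log2 units of 6 gene lists in each library, by group, with replicates as symbols and the 6 T cell genes of interest left out. The B cell means of all Salmonella libraries are at most 6.11 and those of the other groups at least 7.02, while the monocyte means with Salmonella are at least 9.06, over all other libraries.

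Of 9 neutrophil markers 0 were higher and 1 lower with the sponge plus Salmonella against Salmonella by limma, and 2 were higher and 2 lower with Salmonella against control. Of 6 basophil and eosinophil markers 3 were higher and 0 lower with the sponge plus Salmonella against Salmonella by limma, and 5 lower and 0 higher with Salmonella against control. Their mean per library did not overlap between groups, at 5.89 to 6.82 with the sponge plus Salmonella, 5.28 to 5.62 with Salmonella and 6.84 to 7.31 in control libraries. Of 7 platelet markers 2 were higher and 1 lower with the sponge plus Salmonella against Salmonella, and 5 were higher with Salmonella against control. Genes often used as internal references were not constant. Of 8 measured, 2 were higher and 3 lower with Salmonella against control, with RPL4 at 11.38 ± 0.16 with Salmonella and 13.36 ± 0.08 in control libraries (SD, n = 4 each).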

How the data were processed

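Per the labels, RNA of PBMC was sequenced in 12 libraries, 4 for each of 3 groups taken from the treatment labels. Per the labels' protocols, RNA came from a PAXgene kit (RIN above 8), libraries from a TruSeq kit and single reads of 50 bases. The submitters' processing notes name Bowtie, R 3.4.2 and Sscrofa11.1. How the authors turned reads into the deposited log2 values, and the counting, the normalization and the log base, is not given in the sources used here. Depth is unknown, so no counting error can be given.

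All genes were fitted in limma 3.58.1 (R 4.3.3) on the deposited values with group means, all 12 libraries and a variance trend. Tests were 2-sided, and p-values were Benjamini-Hochberg adjusted over 7480 genes (7479 where CD3D or CD3E was subtracted). The code was checked on simulated data. Alternatives for counts or linear values did not apply to a log table.

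The 6 genes and the lists were chosen with earlier results of these data known. From each T cell list up to 4 called genes a direction and comparison were eligible to be named, and up to 2 from other lists, and some eligible genes are not reported here by name, though the counts hold them. KLF2, and the levels of PLCG1, IKZF3, RORA, TOX, AQP3, CTLA4, IL21, CCL21, OR5D18 and LHX6, were given after their values were seen. For likeness the 3 genes with the highest Pearson r to each of the 6 were taken.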

Additional observations from a re-analysis of the deposited data

Results flagged for a closer look

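Among 237 groups of 4 libraries (79 genes, the 6 T cell genes and list genes taken by rule), 10 had a library far from the other 3, with a gap over the 95% critical value of Dixon's test. Chance flags about 1 in 20 groups. Of the 18 groups of the 6 T cell genes, 1 was marked: CCR7 stood at 10.92 in Salmonella replicate 3, against 9.55 to 9.73 in the other Salmonella libraries. Without that library CCR7 differed between sponge plus Salmonella and Salmonella by 1.27 log2 units.

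Among genes of the T cell lists, control replicate 3 stood apart for LEF1 (11.44, others 10.91 to 10.99), RORA (5.15, others 4.14 to 4.22) and CTLA4 (4.16, others 4.29 to 4.31). RUNX3 stood at 11.0 in Salmonella replicate 2, with the others at 10.28 to 10.39. AQP3 stood at 4.81 in sponge plus Salmonella replicate 2, with the others at 5.45 to 5.51. IL2RB stood at 10.84 in sponge plus Salmonella replicate 4, with the others at 10.22 to 10.32.

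In other lists, the B cell gene CXCR5 stood at 9.77 in control replicate 1, with the others at 8.71 to 8.84. The neutrophil gene MPO stood at 4.95 in sponge plus Salmonella replicate 2 (others 5.68 to 5.82) and at 6.24 in control replicate 2 (others 5.11 to 5.24).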

How the results depend on the processing

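The count of the 6 T cell genes called was 5 to 6 for sponge plus Salmonella against Salmonella and 5 for Salmonella against control in all 8 runs that left out a library of the comparison. Of all 7480 genes, 1325 to 2013 and 1991 to 2419 were called in those runs. Against control, the sponge plus Salmonella count of 5 became 3 under quantile normalization, under the low-value filter and without a variance trend, and 3 to 4 with a library left out (3 without sponge replicate 3, control replicate 1 or control replicate 3). All-gene calls, 3057 in the main fit, were 3230, 2103 (of 4144 genes) and 2940 under those settings. With a library left out they were 2441 to 2959. BCL11B in that comparison ran from -0.27 to 0.03 with a library left out and was 0.04 under quantile normalization. Without a variance trend, CCR7 missed the threshold for sponge plus Salmonella against Salmonella (adjusted p = 0.0546) and against control (0.06). The first was also missed with only the 2 groups in the fit (0.057), and the other under quantile normalization (0.0938). TCF7 missed it for sponge plus Salmonella against control under quantile normalization (0.0678), without a trend (0.0554) and with only the 2 groups in the fit (0.0743).

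Relative to CD3D, the counts of 2, 5 and 4 genes (sponge plus Salmonella against Salmonella, Salmonella against control, sponge plus Salmonella against control) became 0, 1 and 0 relative to CD3E, and the count of 2 ran from 0 to 3 with a library left out (0 without Salmonella replicate 4, 1 without Salmonella replicates 1 or 3 or sponge replicates 3 or 4). Relative to the mean of CD3D, CD3E and CD2, the calls of TCF7 (0.54, adjusted p = 0.0363) and BCL11B (0.52, 0.0224) in sponge plus Salmonella against Salmonella held, and those of TCF7 in Salmonella against control (-0.02, 0.956) and BCL11B in sponge plus Salmonella against control (-0.21, 0.468) did not. Signs changed relative to CD3E for CD2 (-0.32) and CCR7 (-0.18) in sponge plus Salmonella against Salmonella, for TCF7 in Salmonella against control (0.26) and for TCF7 in sponge plus Salmonella against control (0.58, and 0.53 relative to the mean of CD3D, CD3E and CD2). With a library left out, CD2 ran from -0.16 to 0.16 and CCR7 from -0.03 to 0.43 relative to CD3D in sponge plus Salmonella against Salmonella; CD2 was -0.12 without Salmonella replicate 4 and CCR7 -0.02 without sponge replicate 4. The causes were not tested. Of the 58 other genes of the 6 lists, 30 were called for sponge plus Salmonella against Salmonella, and 20 to 28 with a library left out. In the same runs the calls over all 7480 genes were 1325 to 2013, in place of 1873.

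With the replicate number as a block, 6, 5 and 5 of the T cell genes were called, as without it, among 1706, 2371 and 2907 of all genes, and 2, 5 and 4 relative to CD3D. No pairing by number was seen: 2 of 12 same-numbered pairs correlated above 0.1 (-0.36 to 0.38), and 0 of 12 libraries correlated best with their own number in both other groups. With so few libraries a group, this check cannot exclude that some numbers mark shared animals or days. Depth is unknown, and at the floor of the table differences of CD3D and TCF7 are the least certain.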
